A study of Homo sapiens with 4 samples.

Results

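The 35 genes described here encode aminoacyl-tRNA synthetases, the enzymes that attach an amino acid to its transfer RNA (tRNA). They were taken by name from the 57820 genes of the count files: 19 encode synthetases of the cytosol, or of both compartments, and 16, whose symbols end in 2, encode synthetases of the mitochondrion. All 35 matched a gene identifier and all 35 passed the filter on low counts, with SARS2 the lowest at 6 reads in the library labelled ARID1B shRNA. Messenger RNA was sequenced from Daoy, a human line established from a medulloblastoma, in a design that asks what follows when ARID1B, a subunit of SWI/SNF chromatin remodelling complexes, is lowered. The shRNA library came from a polyclonal Daoy population in which doxycycline switches on an ARID1B short hairpin RNA (shRNA) from the lentiviral vector tet-pLKO-puro; it is called the shRNA-labelled library below. The controls were 3 libraries labelled wild type, numbered 1 to 3, which the series design describes as cells with the vector alone and parental cells, without saying which library is which. The treatment given in the labels, doxycycline at 1 µg/ml for 72 h, is the same for every sample.

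Cells keep separate sets of synthetases for the tRNAs of the cytosol, which read nuclear messages, and for those of the mitochondrion, which read the few messages of mitochondrial DNA. GARS1 and KARS1 serve both compartments from a single gene. In the cytosol several synthetases are held with the scaffold proteins AIMP1, AIMP2 and EEF1E1 in a multisynthetase complex, and the others act on their own. When uncharged tRNA builds up, the kinase GCN2 phosphorylates the initiation factor eIF2, which lowers protein synthesis at large and favours translation of the transcription factor ATF4. ATF4 binds C/EBP-ATF elements and is known to raise genes of amino acid uptake and synthesis together with many cytosolic synthetase genes.

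The shRNA-labelled library held 8792848 reads in genes, and the wild-type libraries held 12619786, 13228587 and 15390106. ARID1B itself was not lower in the shRNA-labelled library, at 175 CPM, a gene's reads relative to the scaled total of its library, while wild-type libraries 1, 2 and 3 had 164, 87.9 and 72.8 CPM (log2 fold change 0.69, SE 0.46, adjusted p = 0.399 by edgeR). Without wild-type library 1 it was higher there by 1.12 as a log2 fold change (adjusted p = 0.026 by edgeR), and once the dependence of each library on GC content and transcript length was taken out the value was -0.16 (adjusted p = 0.901 by edgeR). The label is therefore used only as a name, and each direction below is that of the library so labelled. That arm is 1 library without replication: the spread in each test is that of the 3 wild-type libraries alone, which the labels do not describe as separate cultures, and p-values measure only this spread, which may be technical. Whatever else set this library apart cannot be told apart from its label. In RNA from a whole culture, fewer cells of a type and less RNA per cell cannot be told apart. Of 17 neural and medulloblastoma markers 11 were above 1 CPM in every library, and the list summed to 1195 CPM in the shRNA-labelled library, against 2891, 2634 and 2679 CPM in wild type. Most of that sum is VIM, and the other 16 markers summed to 260 CPM, against 237, 195 and 244 CPM. Of the 14 markers tested 7 had a positive and 7 a negative log2 fold change, with a median of 0.029. VIM, the mesenchymal filament gene vimentin, stood at 935 CPM, against 2653, 2439 and 2435 CPM, and fell (log2 fold change -1.42, adjusted p = 0.0214 by edgeR) and ZIC2 rose (1.42, adjusted p = 0.0430 by edgeR). No other marker passed: OLIG2 had 3.47 and SOX2 had -1.52 (adjusted p = 0.0591 and 0.135 by edgeR). VIM and ZIC2 did not pass without wild-type library 2 (adjusted p = 0.0567 and 0.0629 by edgeR), and ZIC2 did not pass with the trend removed (0.213) or without library 3 (0.0923). Their part in the results below was not tested. ATOH1 had no reads, and NEUROD1 and GFAP stayed below 1 CPM. Of 7 markers of other cells 6 matched an identifier, and these summed to 1.14 CPM in the shRNA-labelled library and to 2.27 to 3.16 CPM in the wild-type libraries.

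Of the 19 cytosolic or shared genes 5 rose and none fell: GARS1, SARS1, CARS1, MARS1 and AARS1. None of the 16 mitochondrial genes rose or fell. Over all 17024 tested genes 3.65% rose and 0.834% fell by the same test (edgeR's quasi-likelihood test, Benjamini-Hochberg adjusted p below 0.05). For the mitochondrial genes DESeq2 and limma-voom also made 0 calls, where they called 10.4% and 5.24% of all genes in either direction. An unadjusted edgeR p below 0.05 was found for 2 of the 16 mitochondrial and 10 of the 19 cytosolic or shared genes, and for 25.4% of all genes. The median log2 fold change was 0.44 over the cytosolic class and -0.10 over the mitochondrial class, against -0.05 over all tested genes, and the class medians differed by 0.54. That difference was not tested. Among the wild-type libraries the gap between class medians of log2 level, not of fold change, had an SD of 0.21 (n = 3). With the trend on GC content and length removed these medians were 0.48, -0.24 and -0.08. Removing the trend left the same 5 cytosolic genes higher, made QARS1 lower and called no mitochondrial gene, with 1.97% of all genes higher and 1.20% lower; of all called genes 62.0% were then higher, against 81.4% as measured.

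**Figure D1:**
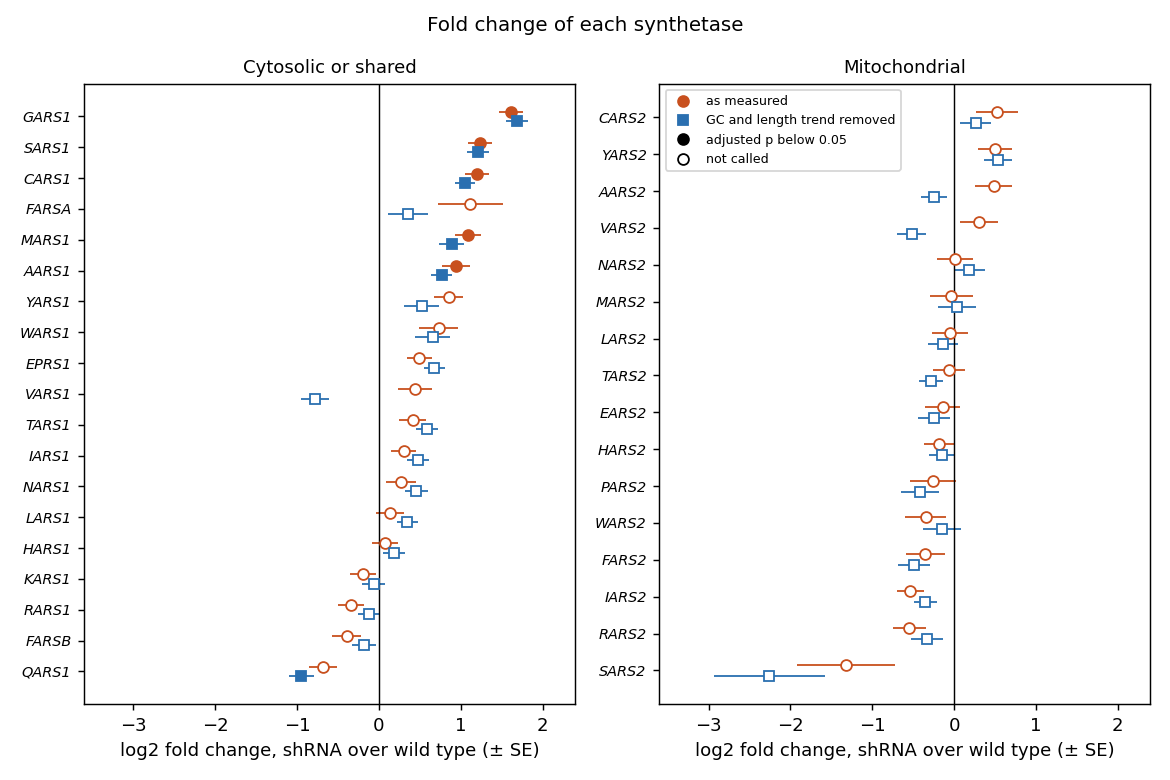
The log2 fold change of each synthetase in the shRNA-labelled library over wild type (horizontal axis, with standard errors) is drawn as measured (circles) and with the trend on GC content and length removed (squares), and filled symbols have an edgeR adjusted p below 0.05. The 5 filled circles are all cytosolic or shared genes, no mitochondrial gene has a filled symbol, and QARS1 has a filled square at -0.95.

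The number of calls rested on the controls used. Without wild-type library 1 the same count of 5 cytosolic genes rose, against 5.43% of all genes. Without wild-type library 2 only 1 rose, GARS1, against 0.836% of all genes, and without wild-type library 3 it was 3, GARS1, SARS1 and FARSA, against 2.68%. With no filter on low counts 8 rose and 1 fell, against 7.40% and 3.10% of the genes then tested.

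Counted against the range of the 3 wild-type libraries, 15 of the 19 cytosolic or shared genes were above every wild-type library and 4 were below every one, where 35.4% and 37.9% of all tested genes were. Of the 16 mitochondrial genes 4 were above, 8 below and 4 inside that range. Summed over the class, the cytosolic synthetases took 8052 CPM in the shRNA-labelled library, against 5003, 5292 and 5246 CPM in the 3 controls. The mitochondrial synthetases took 617 CPM, against 706, 640 and 683 CPM. The cytosolic sum thus lay outside the wild-type values by far more than their spread of 156 CPM (SD, n = 3), while the mitochondrial sum lay below the lowest of them by less than the spread of 33.1 CPM. The ratio of the sums was 13.1 in the shRNA-labelled library and 7.68 ± 0.587 in wild type (SD, n = 3). Sums weigh abundant genes most, and the cytosolic sum includes GARS1, which serves both compartments. GARS1 stood at 1291 CPM in the shRNA-labelled library, against a wild-type mean of 422 CPM. IARS2, in the mitochondrial sum, stood at 131 CPM, against a wild-type mean of 189 CPM.

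GARS1, the glycyl-tRNA synthetase of both cytosol and mitochondrion, rose the most of the 35. It measured 1291 CPM in the shRNA-labelled library, from 11332 reads, whereas the controls, in the order 1, 2 and 3, had 393, 454 and 419 CPM. That is a 3.06-fold rise (log2 fold change 1.61, SE 0.15, adjusted p = 0.018 by edgeR), and counting error left the level between 1267 and 1315 CPM (exact 95% Poisson interval). No other synthetase passed under all 8 alternatives, which include leaving out any of the wild-type libraries.

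SARS1, which charges the serine tRNAs of the cytosol and also primes the tRNA of selenocysteine, measured 632 CPM in the shRNA-labelled library, against 276, 276 and 252 CPM in wild type. Its rise was 2.36-fold (log2 fold change 1.24, SE 0.15, adjusted p = 0.0223 by edgeR). CARS1, the cysteinyl-tRNA synthetase, measured 228 CPM, against 99.3, 97.6 and 101 CPM. The 3 controls of CARS1 lay closer together than those of any other cytosolic synthetase, with a highest value 1.04 times the lowest, and the rise was 2.30-fold (log2 fold change 1.20, SE 0.15, adjusted p = 0.0238 by edgeR).

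MARS1, which charges methionine, also for initiation, measured 622 CPM in the shRNA-labelled library, against 265, 302 and 308 CPM in wild type, a 2.13-fold rise (log2 fold change 1.09, SE 0.16, adjusted p = 0.0310 by edgeR). AARS1, the alanyl-tRNA synthetase, measured 336 CPM, against 178, 157 and 189 CPM, a 1.92-fold rise (log2 fold change 0.94, SE 0.17, adjusted p = 0.0425 by edgeR). For each of these 5 genes the shRNA-labelled value lay above all 3 wild-type values, as it did for 35.4% of all tested genes. With the trend on GC content and length removed the log2 fold changes were 1.69 for GARS1, 1.21 for SARS1, 1.05 for CARS1, 0.89 for MARS1 and 0.77 for AARS1. Without wild-type library 2 the edgeR adjusted p was 0.0565 for both SARS1 and CARS1, 0.0659 for MARS1 and 0.0786 for AARS1, and without library 3 it was 0.0502 for CARS1, 0.0639 for MARS1 and 0.0698 for AARS1. The log2 fold changes without library 2 were 1.27 for SARS1, 1.20 for CARS1, 1.13 for MARS1 and 0.89 for AARS1. In the annotation MARS1 shares 355 exon bases, 5.05% of its own, with DDIT3 on the opposite strand. DDIT3, which encodes the stress factor CHOP, stood at 29.2 CPM, against 7.67, 7.10 and 9.16 CPM in wild type (log2 fold change 1.87, adjusted p = 0.027 by edgeR). The strand setting of the counting is not given in the sources used here, and the part of the overlap in the MARS1 value was not tested.

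**Figure D2:**
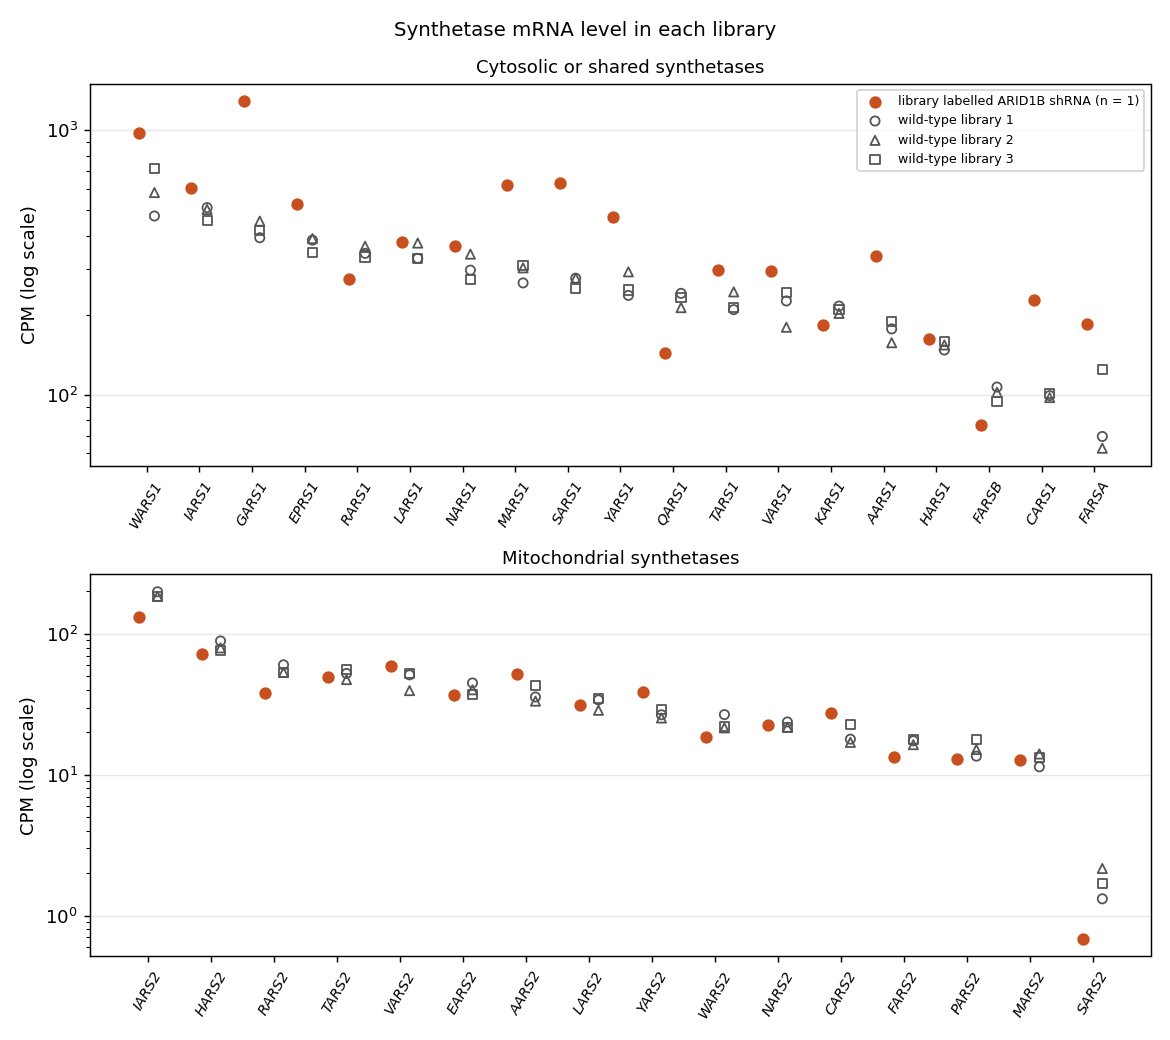
The CPM of each synthetase (vertical axis, log scale) is drawn for the shRNA-labelled library (filled circles) and wild-type libraries 1 to 3 (open circles, triangles and squares), with genes ordered by their wild-type mean. GARS1 stands at 1291 CPM, far above its wild-type values of 393 to 454 CPM, while most mitochondrial genes lie within or near their wild-type range.

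Since several cytosolic genes stood higher together, their promoters were searched for the C/EBP-ATF core motif TGATGNAA on both strands. The windows ran from 250 bases before to 50 bases after each RefSeq gene start (GRCh38.p14, a build other than that of the count files). Of the cytosolic genes 16 had a window and 7 of them (43.8%) held the motif; of the mitochondrial genes 14 had a window and 1 (7.14%) held it. Over all 27305 genes with a window 4.46% held it. LARS1, VARS1, YARS1, AARS2 and VARS2 had no window. The stretches that hold the motif are printed below on the strand of the gene, with the motif in capitals, so that the place and spelling of the match can be compared.
AARS1: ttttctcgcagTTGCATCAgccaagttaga
CARS1: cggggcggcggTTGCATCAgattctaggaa
GARS1: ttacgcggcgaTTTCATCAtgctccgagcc
IARS1: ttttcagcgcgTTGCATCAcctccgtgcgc
MARS1: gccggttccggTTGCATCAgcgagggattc
NARS1: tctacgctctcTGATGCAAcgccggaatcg
TARS1: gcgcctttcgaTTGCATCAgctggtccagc
YARS2: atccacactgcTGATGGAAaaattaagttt

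The match was TGATGCAA, or TTGCATCA, its form on the other strand, in 6 of the 7 cytosolic genes, and TTTCATCA in GARS1. The matches began 33 bases before the annotated start in GARS1, 13 before it in IARS1, 4 before it in MARS1 and 2 before it in CARS1. In TARS1 and NARS1 they lay within the first bases of the transcript. In AARS1 and in mitochondrial YARS2 they lay farther out, 187 and 197 bases before the start. The stretches lie at chr16:70289675-70289704 (minus strand) for AARS1, chr11:3057407-3057436 (minus) for CARS1, chr7:30594834-30594863 (plus) for GARS1, chr9:92293692-92293721 (minus) for IARS1, chr12:57488053-57488082 (plus) for MARS1, chr18:57621804-57621833 (minus) for NARS1, chr5:33440956-33440985 (plus) for TARS1 and chr12:32756076-32756105 (minus) for YARS2.

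Of the 5 cytosolic genes that rose, 4 held the motif, and of the 11 others with a window 3 did, IARS1, NARS1 and TARS1. SARS1 rose by a similar amount with none of these letters in its window. The median log2 fold change was 0.94 over the 7 cytosolic genes with the motif, from 0.27 for NARS1 to 1.61 for GARS1, and 0.08 over the 9 without it, from -0.68 for QARS1 to 1.24 for SARS1. YARS2, the mitochondrial gene with the motif, had 0.50. A match describes the letters of a window and shows neither binding nor its absence. The 250 bases before the start are printed for GARS1 (chr7:30594628-30594877, plus strand), where the motif lies close to the start, for AARS1 (chr16:70289507-70289756, minus strand), where it lies far from it, and for SARS1 (chr1:109213643-109213892, plus strand), which has none.
GARS1 upstream: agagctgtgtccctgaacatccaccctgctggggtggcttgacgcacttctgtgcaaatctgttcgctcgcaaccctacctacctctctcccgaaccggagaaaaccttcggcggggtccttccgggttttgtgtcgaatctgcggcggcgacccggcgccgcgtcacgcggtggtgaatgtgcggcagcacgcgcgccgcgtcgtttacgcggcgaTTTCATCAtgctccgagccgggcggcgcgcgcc
AARS1 upstream: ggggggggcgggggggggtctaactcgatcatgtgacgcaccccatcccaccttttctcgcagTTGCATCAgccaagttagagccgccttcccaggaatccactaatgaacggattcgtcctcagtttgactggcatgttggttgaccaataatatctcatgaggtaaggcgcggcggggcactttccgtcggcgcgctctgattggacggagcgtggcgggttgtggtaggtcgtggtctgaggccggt
SARS1 upstream: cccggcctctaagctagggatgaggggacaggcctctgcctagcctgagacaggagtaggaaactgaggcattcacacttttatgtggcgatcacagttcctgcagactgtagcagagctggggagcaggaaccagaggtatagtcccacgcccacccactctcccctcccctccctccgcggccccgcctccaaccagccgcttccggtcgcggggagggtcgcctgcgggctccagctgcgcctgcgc

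Among the 12 cytosolic synthetases that act outside the multisynthetase complex 4 rose, against 3.65% of all tested genes, and the other 8 did not pass. YARS1, the tyrosyl-tRNA synthetase, came nearest to the threshold, at 469 CPM in the shRNA-labelled library against 238, 292 and 249 CPM in wild type (log2 fold change 0.85, SE 0.18, adjusted p = 0.0564 by edgeR). It was called under 2 of the 8 alternatives, DESeq2 (adjusted p = 0.0074) and no filter on low counts. With the trend on GC content and length removed YARS1 had 0.52 (adjusted p = 0.211 by edgeR). WARS1, the tryptophanyl-tRNA synthetase, which interferon also induces, measured 981 CPM, against 474, 582 and 716 CPM (log2 fold change 0.73, SE 0.24, adjusted p = 0.138 by edgeR). Its controls spread 1.51-fold, and its level lay above all of them, as it did for 35.4% of all tested genes.

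The subunits of phenylalanyl-tRNA synthetase, which work as a pair, stood on opposite sides of their controls. FARSA, the alpha subunit, measured 186 CPM in the shRNA-labelled library, against 69.6, 62.8 and 125 CPM in wild type (log2 fold change 1.12, SE 0.40, adjusted p = 0.167 by edgeR). FARSB, the beta subunit, measured 77.0 CPM, against 107, 102 and 94.2 CPM (log2 fold change -0.39, SE 0.18, adjusted p = 0.231 by edgeR). FARSA is the more GC-rich of them, with 60.3% against 41.6% in its longest transcript. With the trend on GC content and length removed the values were 0.36 for FARSA and -0.18 for FARSB. FARSA was called without wild-type library 3, the highest of its controls (log2 fold change 1.49, adjusted p = 0.0438 by edgeR).

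TARS1, NARS1 and HARS1, which charge threonine, asparagine and histidine, measured 297, 366 and 162 CPM in the shRNA-labelled library, with log2 fold changes of 0.41, 0.27 and 0.08 (adjusted p = 0.199, 0.391 and 0.786 by edgeR). The HARS1 level lay just above its highest control, 160 CPM. VARS1, the valyl-tRNA synthetase and a partner of elongation factor eEF1, measured 294 CPM, against 226, 180 and 243 CPM (log2 fold change 0.44, adjusted p = 0.248 by edgeR). VARS1 is the most GC-rich of the 35, at 62.6%, and its fold change turned to -0.78 with the trend removed (adjusted p = 0.0705 by edgeR).

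Of the 7 listed synthetases of the multisynthetase complex 1 rose, MARS1, and none fell, against 3.65% and 0.834% of all tested genes. EPRS1, a bifunctional enzyme for glutamate and proline, measured 527 CPM in the shRNA-labelled library, against 384, 390 and 345 CPM in wild type (log2 fold change 0.50, SE 0.16, adjusted p = 0.129 by edgeR). IARS1 and LARS1, for isoleucine and leucine, stood at 0.30 and 0.14 on that scale (adjusted p = 0.281 and 0.636 by edgeR). LARS1 is also known as a leucine sensor of mTORC1.

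On the other side of the controls lay QARS1, KARS1 and RARS1. QARS1, the glutaminyl-tRNA synthetase, measured 144 CPM, against 242, 214 and 233 CPM (log2 fold change -0.68, SE 0.17, adjusted p = 0.0843 by edgeR). With the trend removed QARS1 fell, by 0.95 on the log2 scale (adjusted p = 0.0366 by edgeR). RARS1, the arginyl-tRNA synthetase, measured 275 CPM, against 343, 365 and 332 CPM, and KARS1, the lysyl-tRNA synthetase of both compartments, 184 CPM, against 217, 203 and 210 CPM (log2 fold changes -0.34 and -0.19, adjusted p = 0.252 and 0.483 by edgeR). KARS1 and GARS1, the genes that serve both compartments, thus stood on opposite sides of wild type. The median log2 fold change was 0.14 over the 7 genes of the complex and 0.79 over the 12 others, and the difference between these groups was not tested. None of the 3 scaffold genes passed: AIMP2 measured 27.2 CPM, against 16.6, 14.5 and 21.2 CPM (log2 fold change 0.64, adjusted p = 0.221 by edgeR), EEF1E1 had 0.20 and AIMP1 -0.10.

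By the fold of their catalytic domain, 2 of the 9 class I enzymes rose (CARS1 and MARS1). Of the 9 class II enzymes 3 did (AARS1, GARS1 and SARS1), against 3.65% of all tested genes. The median log2 fold changes were 0.44 for class I and 0.41 for class II. EPRS1 holds a domain of each class and was counted in neither.

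No mitochondrial synthetase passed the test, and their log2 fold changes ran from -1.32 for SARS2 to 0.52 for CARS2. IARS2, for isoleucine, had the smallest adjusted p of the 16, at 131 CPM in the shRNA-labelled library against 199, 185 and 184 CPM in wild type (log2 fold change -0.53, SE 0.17, adjusted p = 0.124 by edgeR). RARS2, for arginine, measured 38.0 CPM, against 60.4, 53.3 and 53.0 CPM (log2 fold change -0.55, SE 0.20, adjusted p = 0.165 by edgeR). On the higher side CARS2, for cysteine, measured 27.7 CPM, against 17.9, 17.0 and 22.8 CPM (log2 fold change 0.52, SE 0.26, adjusted p = 0.264 by edgeR). These 3 genes lay outside the range of their controls, and none of them passed the test. Over all tested genes 35.4% lay above and 37.9% below that range.

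YARS2 and AARS2, for tyrosine and alanine, measured 38.4 and 52.3 CPM in the shRNA-labelled library and 27.1 ± 1.96 and 37.4 ± 5.17 CPM in wild type (SD, n = 3), and their log2 fold changes were 0.50 and 0.48 (adjusted p = 0.201 and 0.244 by edgeR). VARS2, for valine, had 0.30. With the trend on GC content and length removed YARS2 had 0.54, while AARS2 turned to -0.25 and VARS2 to -0.52. NARS2, MARS2, LARS2 and TARS2, for asparagine, methionine, leucine and threonine, were inside the wild-type range, with log2 fold changes of 0.011, -0.032, -0.047 and -0.065. EARS2, HARS2, PARS2, WARS2 and FARS2, for glutamate, histidine, proline, tryptophan and phenylalanine, lay below their controls with log2 fold changes from -0.14 to -0.35 and edgeR adjusted p of 0.395 or more.

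SARS2, the mitochondrial seryl-tRNA synthetase, was counted with too few reads to compare. It had 0.683 CPM from 6 reads in the shRNA-labelled library (exact 95% Poisson interval 0.251 to 1.49 CPM), against 1.32, 2.16 and 1.69 CPM in wild type (adjusted p = 0.236 by edgeR). In the annotation 46.2% of its exon bases are shared with another gene on the same strand, and how reads in shared bases were counted is not given in the sources used here. VARS2 shares 22.0% of its exon bases with GTF2H4 in the same way. HARS1 and HARS2 start head to head and share 437 exon bases on opposite strands; neither passed.

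Set side by side by amino acid, the cytosolic gene had the larger fold change in 16 of 17 pairs, and the exception was FARSB against FARS2, at -0.39 and -0.35. EPRS1 and FARS2 each enter 2 pairs. The median difference was 0.48 on the log2 scale. The largest, 2.56 for serine, rests on SARS2, counted from 6 reads in the shRNA-labelled library. The smallest positive differences were 0.14 for valine, 0.18 for leucine and 0.21 for arginine. The SEs of VARS2, LARS2 and RARS2 alone were 0.23, 0.22 and 0.20. For arginine both fold changes were negative, at -0.34 and -0.55. For methionine, MARS1 exceeded MARS2 by 5.62 on the log2 scale of CPM in the shRNA-labelled library and by 4.54, 4.43 and 4.53 in wild type. For isoleucine, IARS1 exceeded IARS2 by 2.21, against 1.36, 1.44 and 1.31 in wild type, although neither gene passed on its own. In both cases the ratio lay above the wild-type range by more than its spread there. With the trend on GC content and length removed the cytosolic gene had the larger change in 15 pairs; valine (VARS1 and VARS2, difference -0.26) and tyrosine (YARS1 and YARS2, -0.018) then ran the other way. The differences within pairs were not tested.

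**Figure D3:**
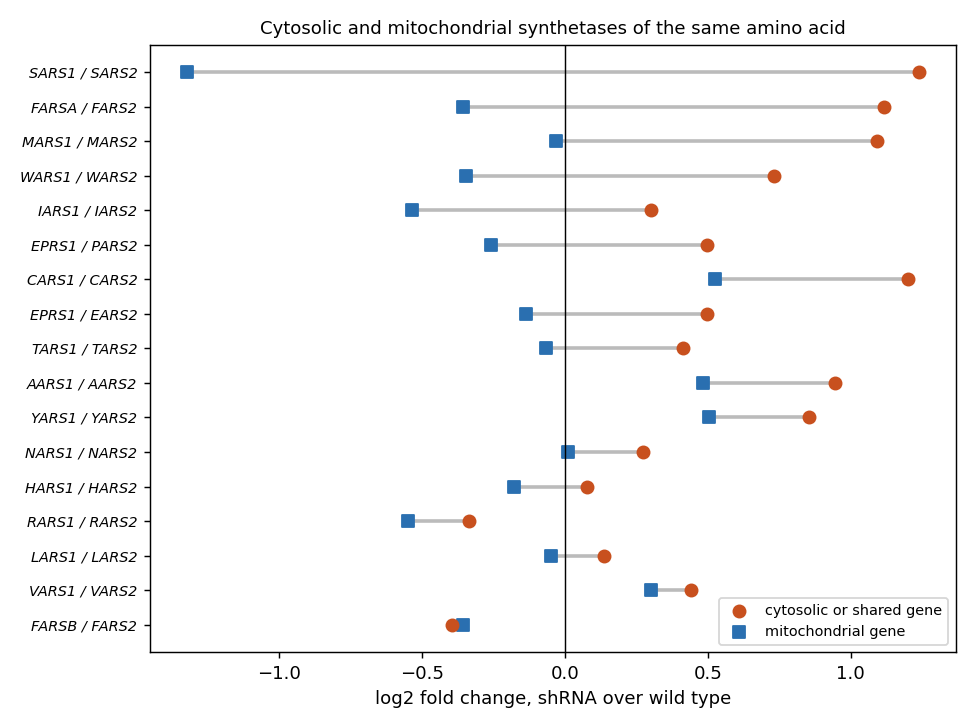
Each row joins the cytosolic or shared gene (circle) and the mitochondrial gene (square) for the same amino acid at their log2 fold changes in the shRNA-labelled library over wild type (horizontal axis), ordered by the gap. The circle lies to the right in 16 of 17 rows, with FARSB and FARS2 the exception at -0.39 and -0.35.

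Per kilobase of longest annotated transcript, the cytosolic messages were also the more abundant class. Their median was 96.6 CPM per kilobase in the shRNA-labelled library and 76.4 ± 2.48 in wild type (SD, n = 3), while the mitochondrial median was 9.15 and 8.69 ± 0.597. In wild type WARS1, RARS1, GARS1 and SARS1 led, at 191 ± 39.2, 161 ± 7.72, 160 ± 11.6 and 142 ± 7.19 CPM per kilobase (SD, n = 3), and the first 3 of these did not differ beyond their spread. In the shRNA-labelled library GARS1 led at 490 CPM per kilobase, followed by SARS1 at 336 and WARS1 at 317. CARS1 was the lowest cytosolic gene in wild type, at 17.4 ± 0.328, over an annotated transcript of 5732 bases that Daoy cells need not use. Among mitochondrial genes IARS2 was the highest, at 36.8 CPM per kilobase in the shRNA-labelled library and 53.2 ± 2.37 in wild type.

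GC content moved with the fold change over all genes. The median log2 fold change was -0.30 in the 1662 tested genes with the lowest GC content and 1.32 in the 1662 with the highest. The classes had similar GC content, with a median of 48.6% (41.4% to 62.6%) for the cytosolic genes and 51.2% (41.9% to 61.2%) for the mitochondrial genes. GARS1, at 48.6%, lay in a range of GC content where the median over all genes was -0.08. SARS1, CARS1, MARS1 and AARS1, at 51.5% to 53.8%, lay where it was 0.03. FARSA, VARS1, AARS2 and VARS2, at 59.3% to 62.6%, lay where it was 0.51 or more.

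**Figure D4:**
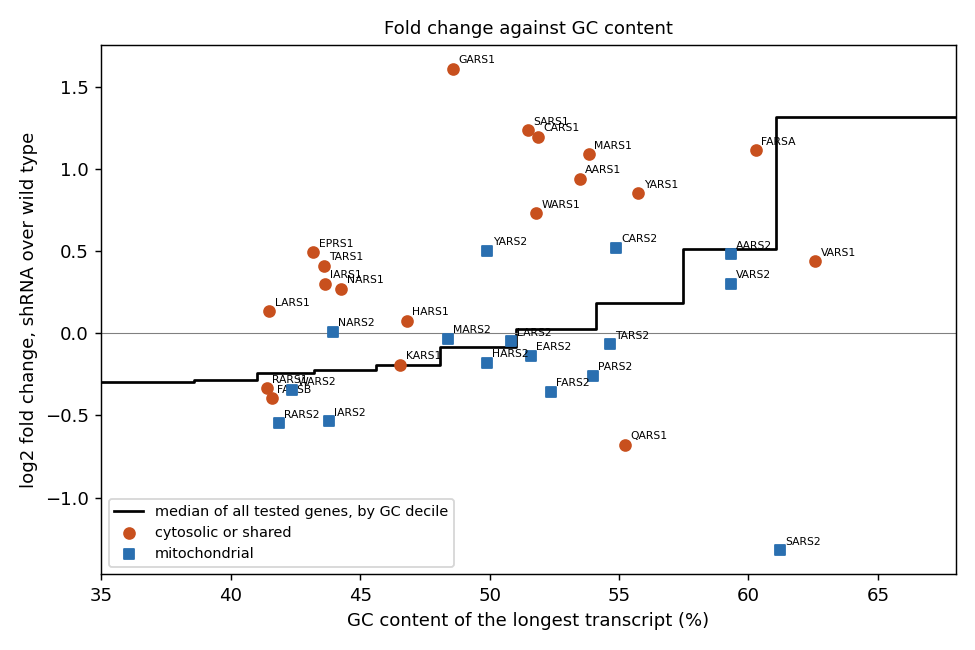
The log2 fold change of each synthetase in the shRNA-labelled library over wild type (vertical axis) is plotted against the GC content of its longest transcript (horizontal axis, percent), with the median of all tested genes in each of 10 equal groups by GC content as a stepped line. GARS1 stands at 1.61 where the line is at -0.08. The mitochondrial genes lie on both sides of the line, most of them below it, with SARS2, counted from 6 reads, far below.

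The genes around the synthetases were counted in the same way. Of 7 genes of uncharged-tRNA sensing and ATF4 output 5 rose and none fell, against 3.65% and 0.834% of all tested genes. Their median log2 fold change was 1.87. Earlier results of these data were known when this list was drawn up. ATF4 stood at 809 CPM, against 262, 302 and 276 CPM in wild type (log2 fold change 1.53, adjusted p = 0.0183 by edgeR), and its targets ASNS, TRIB3 and CHAC1 rose 4.98-fold, 26.5-fold and 26.1-fold. TRIB3 stood at 222 CPM, against 5.97, 9.18 and 9.88 CPM in wild type, and CHAC1 at 57.2 CPM, against 1.1, 1.9 and 3.5 CPM. The CHAC1 fold rests on low controls, of 14, 24 and 54 reads, which spread 3.2-fold in CPM. TRIB3 and CHAC1 are GC-rich, at 60.9% and 62.6%. With the trend on GC content and length removed their log2 fold changes were 3.83 and 3.64, against 4.73 and 4.71 as measured. The kinase gene EIF2AK4, which encodes GCN2, had -0.16, and its activator GCN1 had 0.40, and neither passed. With the trend on GC content and length removed GCN1 turned to -0.32. DDIT3 and CHAC1 did not pass without wild-type library 2 (adjusted p = 0.0565 and 0.0665 by edgeR). The rises of the synthetases, from 1.92-fold to 3.06-fold, were thus smaller than those of ASNS, TRIB3 and CHAC1 in the same libraries.

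Of 10 genes of tRNA export and maturation none rose or fell by edgeR's test, 2 had an unadjusted p below 0.05, a share below the 25.4% of all genes, and the median log2 fold change was 0.12. XPOT, which encodes the tRNA exporter exportin-t, measured 578 CPM, against 313, 347 and 347 CPM (log2 fold change 0.78, SE 0.15, adjusted p = 0.0508 by edgeR), and rose with the trend removed (1.01, adjusted p = 0.0301 by edgeR). TSEN15 and TSEN34, subunits of the tRNA splicing endonuclease, had 0.75 and 0.60, and the CCA-adding enzyme TRNT1 had -0.53. Over this list DESeq2 and limma-voom called 1 gene each, where they called 10.4% and 5.24% of all genes.

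Other genes of mitochondrial tRNA charging and translation gave 1 call, where 3.65% of all tested genes rose and 0.834% fell. None of the 4 genes of transamidation and formylation passed: GATB, QRSL1 and GATC, whose products turn glutamate on tRNA into glutamine, had log2 fold changes of -0.44, -0.12 and -0.13, and MTFMT, which formylates the initiator, had 0.09. The median of these 4 was -0.13. None of 10 mitochondrial translation factors passed, and their median was -0.33. MRRF, a ribosome recycling factor, had -0.58, the elongation factor gene GFM1 had -0.34, and the initiation factor genes MTIF2 and MTIF3 had -0.32 and -0.43. Of 8 genes of mitochondrial tRNA processing, with a median of 0.17, 1 rose, GTPBP3, a wobble-uridine modification enzyme, at 32.8 CPM against 11.7, 11.9 and 13.1 CPM (log2 fold change 1.42, adjusted p = 0.0326 by edgeR). PUS1 and TRMU, both tRNA modification enzymes, had 1.34 and 0.51, HSD17B10, a subunit of mitochondrial RNase P, had -0.28, and none of these passed. The GTPBP3 call ended with the trend on GC content and length removed (0.58, adjusted p = 0.183 by edgeR), without wild-type library 2 (0.0652) and without library 3 (0.0609).

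Of 6 cytosolic elongation factors 5 were tested and 2 rose, against 3.65% of all tested genes. EEF2, which moves the ribosome along the message, measured 3116 CPM, against 1279, 950 and 1493 CPM (log2 fold change 1.33, adjusted p = 0.0491 by edgeR). EEF1A2 measured 44.3 CPM, against 5.04, 1.62 and 3.05 CPM (log2 fold change 3.77, adjusted p = 0.0295 by edgeR). Neither passed once the trend was removed: EEF2 then had a log2 fold change of 0.57 (adjusted p = 0.0905 by edgeR) and EEF1A2 of 2.20 (adjusted p = 0.0812 by edgeR). EEF1D, an exchange factor subunit for eEF1A, measured 162 CPM, against 47.4, 39.4 and 76.4 CPM, and did not pass (log2 fold change 1.57, adjusted p = 0.0756 by edgeR). EEF2 also did not pass without wild-type library 2 (0.0663) or library 3 (0.0549), nor did EEF1A2 without library 3 (0.0933). EEF1A1, which delivers charged tRNA to the ribosome, had -0.20; it has near-identical pseudogene copies, and how reads that match several of them were counted is not given in the sources used here. EEF1G had 0 counts in every library. Whether its message was absent or its reads were not assigned to it was not tested. None of 5 genes of selenocysteine synthesis and of the removal of wrong or D-amino acids from tRNA passed, and their median was -0.40. SEPSECS, which makes selenocysteine on its tRNA, measured 14.8 CPM, against 20.2, 23.2 and 22.7 CPM (log2 fold change -0.57, adjusted p = 0.204 by edgeR). In the other lists with no call, the number with an unadjusted edgeR p below 0.05, found for 25.4% of all genes, was 1 for the mitochondrial translation factors and 0 for the scaffolds, the transamidation and formylation genes and the selenocysteine list, and neither DESeq2 nor limma-voom made a call in them.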

How the data were processed

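Poly(A)-selected RNA of 4 Daoy libraries was sequenced as single reads of 100 nucleotides, per the labels' protocols. The deposited values were raw read counts per gene, 1 file per library. Read processing named bcl2fastq, HISAT2, HTSeq and DESeq2 with build GRCh37 (hg19), per the submitters' processing notes. Versions, counting mode, strand setting and annotation release were not given in the sources used here. The 5 lines that name no gene were left out; ambiguous reads came to 7.67% of genic reads in the library labelled ARID1B shRNA and 6.86% to 7.21% in wild type. Of 57820 identifiers 89.9% had a symbol.

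Genes were kept by filterByExpr (minimum count 10, total 15), scaled by TMM and tested across all genes with edgeR 4.0.16 in R 4.3.3 (glmQLFit with robust shrinkage, glmQLFTest), 1 library against 3, with Benjamini-Hochberg adjustment at 0.05. CPM were computed here from the deposited counts with TMM-scaled library sizes, and CPM per kilobase with the longest annotated transcript. Wild type supplied all 2 residual degrees of freedom. The standard error is the absolute log2 fold change over the square root of F. Alternatives were RLE scaling, DESeq2 1.42.0, limma-voom (limma 3.58.1), no filter, each wild-type library left out, and removal by loess (span 0.3) of the trend on GC content and length in each library, known for 97.6% of tested genes from the longest GENCODE transcript on GRCh38. Overlaps are from that annotation and promoters from RefSeq. No libraries were duplicates (chi-square per degree of freedom 14.9 or more). Intervals cover counting error only. All 35 members are named; of the other lists, the scaffold and transamidation genes in full and otherwise up to 4 genes with the smallest p, with GCN1, EIF2AK4, DDIT3 and EEF1G, and the markers ATOH1, NEUROD1 and GFAP, added after their values were seen. The members, lists and motif were chosen with earlier results of these data known.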

Additional observations from a re-analysis of the deposited data

How the results depend on the processing

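Of 280 values of the 35 synthetases under 8 alternatives, 258 kept their direction and their side of the threshold, 7 no longer passed, 7 newly passed and 8 turned in sign. The count of all genes called, 763, was 1775 with DESeq2, 3226 with no filter and 157 to 1189 without single wild-type libraries. The cytosolic count of 5 was 9 with no filter and 1 to 5 without single wild-type libraries, and the mitochondrial count was 0 under every alternative. The mitochondrial median of -0.10 was -0.24 with the GC and length trend removed. That removal also turned VARS1 to -0.78, AARS2 to -0.25, VARS2 to -0.52, MARS2 to 0.039, ARID1B to -0.16 and AIMP1 to 0.19. It likewise turned GATC to 0.022, QRSL1 to 0.093, TSEN34 to -0.71, TRMU to -0.63 and GCN1 to -0.32. Near 0, NARS2 turned to -0.011 with no filter, and without single wild-type libraries LARS2 ran from -0.12 to 0.0002, MARS2 from -0.11 to 0.043, NARS2 from -0.016 to 0.055 and AIMP1 from -0.17 to 0.034. The causes were not tested. No paired analysis was possible because the shRNA arm is 1 library and the labels pair it with no wild-type library. The low count limits SARS2, at 6 reads, and the part of its shared exon bases in that count was not tested.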

Other observations

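The wild-type libraries differed among themselves for a few synthetases. FARSA was highest in library 3, with 125 CPM against 69.6 and 62.8 CPM in libraries 1 and 2, a spread of 1.99-fold between the highest and the lowest. WARS1 had 474, 582 and 716 CPM, a spread of 1.51-fold. The other cytosolic genes spread by 1.35-fold or less. Which of these libraries carry the vector alone is not stated, and the part of this in the spread was not tested.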
